A study of Mus musculus with 6 samples.

Results

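The tetraspanins described here are 10 host mouse genes whose proteins are found on extracellular vesicles or sit in the same membrane complexes, namely Cd63, Cd9, Cd81, Cd82, Cd151, Tspan2, Tspan3, Tspan5, Tspan7 and Tspan14. They were chosen by symbol, each symbol matched 1 of the 56748 rows of the deposited table, and all 10 passed the filter on low values (a mean of at least 10 normalized counts), which left 16162 genes to test. RNA came from brain tissue of mice at 28 days and at 3 days after implantation of MCF10DCIS cells, with 3 libraries per time point. MCF10DCIS, a human line, models ductal carcinoma in situ, a breast lesion confined to the milk ducts, and in every group the implanted cells carried human CD63 fused to NanoLuc, a light-producing enzyme. The labels give no strain, sex or age of the mice, and do not say whether each library stands for its own animal, so the spread behind each p-value is that of these libraries and may be partly technical. No library of an unimplanted mouse was analysed here, so time after implantation and the age of the animals cannot be told apart.

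Tetraspanins cross the membrane several times and gather partner proteins such as integrins, immunoglobulin-family receptors and proteases into small membrane domains. Cells load some of them, above all CD63, CD9 and CD81, into vesicles that bud from endosomes or from the cell surface, which is why a CD63 fusion can mark vesicles. In brain, Cd9, Cd81, Cd82 and Tspan2 are known from glia, in part from the oligodendrocyte lineage, and Tspan7 is known from neurons. None of them need be confined to these cells, and the cells behind the values below were not tested. The fusion in the implanted cells is human, whereas the values below are of the mouse genes. The sources used here do not say whether human reads were set apart, so a contribution of human reads to the mouse genes was not tested.

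The promoters shown are those of Cd81, which had the largest difference between the days among the 10, and of Cd63, the mouse counterpart of the labelled protein. Each sequence runs from 250 bases before to 50 bases after the start in RefSeq (build GRCm38.p6), 5′ to 3′ on the gene's strand, with GC boxes (GGGCGG on either strand, overlaps counted) in capitals. All 10 genes had an entry in that table, and 6 of them had 1 start.
Cd81, chr7:143052500-143052799, plus strand: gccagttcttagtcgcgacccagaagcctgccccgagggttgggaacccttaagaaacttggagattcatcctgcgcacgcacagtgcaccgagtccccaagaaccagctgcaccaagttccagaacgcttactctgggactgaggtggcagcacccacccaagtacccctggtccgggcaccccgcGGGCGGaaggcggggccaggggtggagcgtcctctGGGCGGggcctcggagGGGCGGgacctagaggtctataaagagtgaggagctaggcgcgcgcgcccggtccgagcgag
Cd63, chr10:128909095-128909394, plus strand: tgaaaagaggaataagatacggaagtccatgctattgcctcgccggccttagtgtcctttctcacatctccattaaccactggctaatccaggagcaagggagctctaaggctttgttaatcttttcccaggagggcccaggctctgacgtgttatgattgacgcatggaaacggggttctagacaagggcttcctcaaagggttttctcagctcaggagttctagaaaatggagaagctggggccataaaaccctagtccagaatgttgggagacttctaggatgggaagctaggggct
The Cd81 window held 3 GC boxes, 1 TATA box (TATAAA on either strand) and 23 CpG dinucleotides. The Cd63 window held 0 GC boxes, 0 TATA boxes and 6 CpG dinucleotides. Of 32851 promoters in the table, 35.7% held at least 1 GC box, 10.7% held at least 3 and 13.6% held a TATA box, and the median was 7 CpG dinucleotides. These matches describe the letters in the windows and not bound sites.

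Cd63, Cd9, Cd81, Cd82 and Tspan2 were each below every day 3 library in all 3 day 28 libraries, but none of the 10 genes passed the test. Cd81 came nearest, with a log2 difference of -0.51. Tspan7 and the ADAM10 regulator Tspan5 had differences near 0. By limma with Benjamini-Hochberg adjustment over all 16162 genes, 0 of the 10 genes passed 0.05, against 0.192% of all tested genes (31 of them). Voom on recovered reads called 0 of all 16162 genes, so its 0 of the 10 tells nothing particular about the tetraspanins. At an adjusted p under 0.1 there was 1 of the 10, Cd81, against 0.94% of all tested genes. At an unadjusted limma p under 0.05 there were 5 of the 10, against 13.4% of all tested genes. Groups did not overlap, with day 28 lower, for 5 of the 10, against 9.21% of all tested genes. The difference was below 0 for 8 of the 10, against 51.4%, and the median log2 difference was -0.29, against -0.01 over all tested genes. The 10 genes were picked with earlier results of these data known, so these counts describe the genes and are no test of them as a set. The count of 31 called genes changed to 623 when day 3 replicate 3 was left out, and to 1 or 2 when day 3 replicate 2 or any one day 28 library was.

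**Figure D1:**
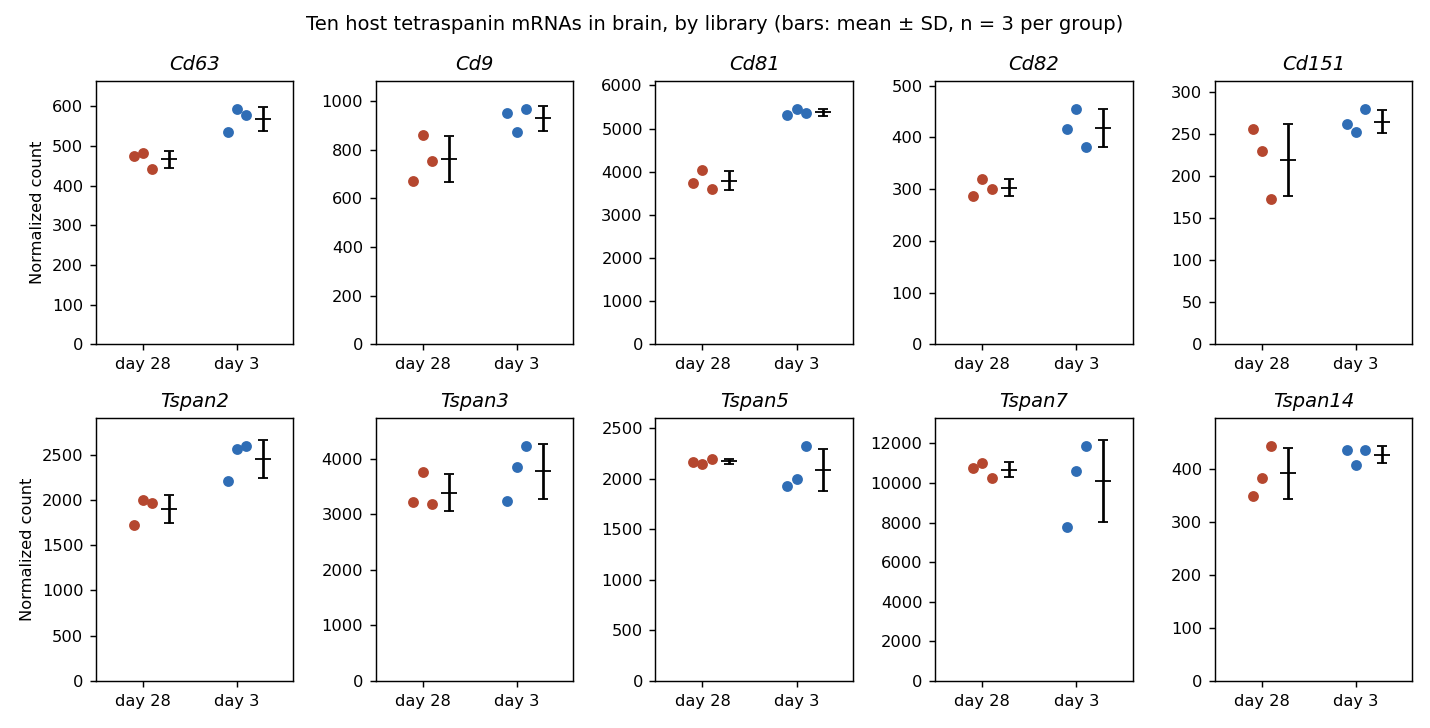
Normalized count (y axis, from 0) of each of the 10 tetraspanin genes in the 3 day 28 libraries (red, left) and the 3 day 3 libraries (blue, right), with points for libraries and bars for the mean ± SD. Cd81 stands at 3599 to 4039 at day 28 and at 5309 to 5449 at day 3, while Tspan7 at day 3 spreads from 7796 to 11877.

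Depth was 11958137 to 16059196 reads per library, recovered from the deposited values. Neuron markers were present throughout, with 10 of 10 tested and a summed level of 118557 to 124548 normalized counts at day 28 and 116365 to 124248 at day 3. Single neuron markers differed in both directions. All day 28 libraries were lower for 3 of the 10, against 9.21% of all tested genes (Nefm, Nefl and Stmn2, log2 -0.59, -0.41 and -0.35). They were higher for Syt1 and Map2 (0.32 and 0.29). An unadjusted limma p under 0.05 was found for 5 of the 10, against 13.4%, and 0 passed the test. Some libraries stood apart. The 15 cerebellar neuron markers summed to 14636 to 18557 normalized counts at day 28, against 45483, 44001 and 11907 in day 3 replicates 1, 2 and 3, and Gabra6, a receptor subunit of cerebellar granule cells, had 0 reads in day 28 replicates 1 and 2 and in day 3 replicate 3. The 8 liver markers summed to 124234 in day 3 replicate 2, against 11343 to 15284 in the other libraries. In those other libraries most of these counts were of Trf and of Ttr, which is also on the choroid plexus list. Alb alone had 67650 normalized counts in day 3 replicate 2, against 21.1 to 1139 elsewhere. Cd63, Cd81 and Cd82 were highest in that library, and without it their log2 differences were -0.25, -0.50 and -0.40. Microglia and endothelial markers were highest in day 3 replicate 1, with mean log2 deviations of 0.46 and 0.59.

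Cd81 encodes a widely expressed vesicle tetraspanin that is also part of the B cell coreceptor. It had 3736, 4039 and 3599 normalized counts at day 28, against 5309, 5449 and 5366 at day 3. All 3 day 28 libraries lay below the lowest day 3 library, and the day 3 libraries lay within a narrow range. The means were 3791 ± 225 at day 28 and 5375 ± 70.7 at day 3 (SD, n = 3 each), a log2 difference of -0.51 (SE 0.08, unadjusted 95% interval -0.69 to -0.32). By p it ranked 46 of 16162, and its limma adjusted p of 0.0573 did not pass. Leaving out single libraries kept the log2 difference between -0.55 and -0.47, with adjusted p from 0.0252 to 0.333. It passed without day 3 replicate 3 (limma adjusted p = 0.0252), and also with a robust prior (adjusted p = 0.0436) and with library weights (adjusted p = 0.0357). Without both day 3 libraries rich in cerebellar transcripts the log2 difference was -0.50 (limma adjusted p = 0.239, with 1 day 3 library assumed to vary like the rest).

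Cd63 encodes a tetraspanin of late endosomes, lysosomes and the vesicles that they release. Mouse Cd63 had 474, 482 and 441 normalized counts at day 28, against 535, 592 and 577 at day 3. The groups did not overlap, though the day 3 library nearest to day 28, replicate 1, lay only a little above the highest day 28 library. The means were 466 ± 22.0 at day 28 and 568 ± 29.7 at day 3 (SD, n = 3 each). The log2 difference of -0.29 (SE 0.11, unadjusted 95% interval -0.53 to -0.04) did not pass (limma adjusted p = 0.293). Cd63 rested on 465 to 540 reads per library at day 28 and on 474 to 584 at day 3, far fewer than Cd81, with 3742 to 4523 and 4409 to 5796 reads. A pseudogene, Cd63-ps, held 4.99 to 19.5 normalized counts per library, and reads shared by both could not be told apart here.

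Cd9 encodes a surface tetraspanin that binds the immunoglobulin-family proteins Igsf8 and Ptgfrn. It had 674, 861 and 754 normalized counts at day 28, against 953, 872 and 968 at day 3. The highest day 28 library, replicate 2, lay just below the lowest day 3 library. The means were 763 ± 93.7 and 931 ± 51.6 (SD, n = 3 each), a log2 difference of -0.29 (SE 0.12) that did not pass (limma adjusted p = 0.319). Without day 28 replicate 1 the log2 difference of Cd9 was -0.21, and without day 28 replicate 2 it was -0.38.

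Cd82, known in human cancer as a metastasis suppressor, had 288, 320 and 300.5 normalized counts at day 28, against 417, 454 and 381 at day 3. The groups did not overlap, and all 3 day 28 libraries lay close together. The log2 difference was -0.46 (SE 0.13, unadjusted 95% interval -0.75 to -0.18), the second largest in size of the 10, and it did not pass (limma adjusted p = 0.169). Cd151, which holds laminin-binding integrins in membrane domains, had 257, 230 and 173 normalized counts at day 28, against 263, 253 and 280 at day 3. One day 28 library lay between the day 3 libraries, so the groups overlapped. The log2 difference of Cd151 was -0.29 (SE 0.17, limma adjusted p = 0.515), and without its lowest library, day 28 replicate 3, it was -0.12.

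Tspan2 is a tetraspanin of the oligodendrocyte lineage, the cells that make myelin. It had 1725, 2002 and 1966 normalized counts at day 28, against 2209, 2556 and 2595 at day 3. No day 28 library reached the lowest day 3 library, replicate 1. The log2 difference of Tspan2 was -0.37 (SE 0.10, unadjusted 95% interval -0.60 to -0.14) and did not pass (limma adjusted p = 0.170). Tspan3, which associates with claudin-11 of myelin, had 3217, 3766 and 3182 normalized counts at day 28, against 3242, 3854 and 4230 at day 3. These groups overlapped, and the log2 difference of -0.15 (SE 0.12, limma adjusted p = 0.620) left the day 28 mean inside the range of the day 3 libraries.

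Tspan5 and Tspan14 belong to the tetraspanins that carry the protease ADAM10 to the cell surface and steer its substrates. Tspan5 had 2170, 2151 and 2195 normalized counts at day 28, against 1933, 1998 and 2326 at day 3. The day 28 libraries lay inside the range of the day 3 libraries, and the log2 difference was 0.06 (SE 0.09, unadjusted 95% interval -0.15 to 0.28, limma adjusted p = 0.815). Tspan14 had 347, 383 and 443 normalized counts at day 28, against 434, 407 and 436 at day 3. Its groups overlapped as well, with a log2 difference of -0.13 (SE 0.13, unadjusted 95% interval -0.42 to 0.16, limma adjusted p = 0.713). Adam10 itself, whose protein sheds the ectodomains of membrane proteins, had a log2 difference of -0.03 (SE 0.09, limma adjusted p = 0.909).

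Tspan7 binds PICK1 in neurons and takes part in the trafficking of AMPA-type glutamate receptors. It had 10753, 10997 and 10276 normalized counts at day 28, against 7796, 10630 and 11877 at day 3. The 3 day 28 libraries lay within the range of the day 3 libraries, of which replicate 1 was lowest by far. The log2 difference was 0.10 (SE 0.15, unadjusted 95% interval -0.23 to 0.43, limma adjusted p = 0.810). Without day 3 replicate 1 it was -0.074, so its sign rested on that library. The coefficient of variation of Tspan7 was 3.43% at day 28 and 20.7% at day 3, and that of Tspan5 was 1.02% and 10.1%. For Cd81 the order was turned round, with 5.94% at day 28 and 1.32% at day 3.

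**Figure D2:**
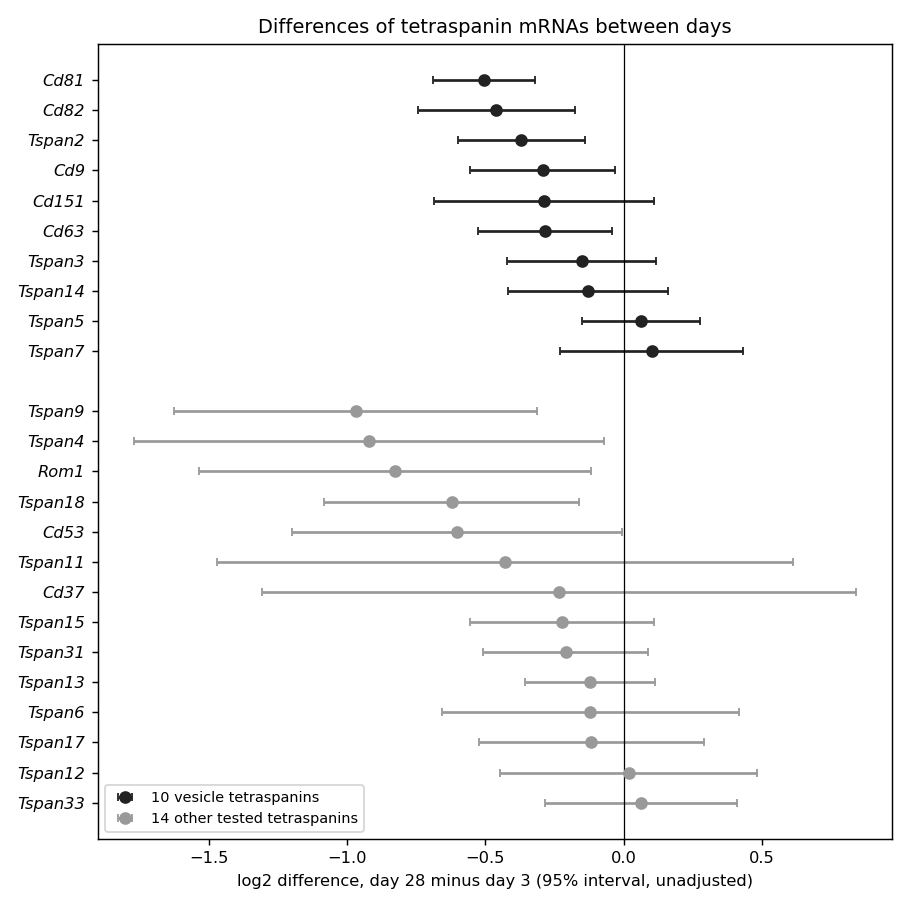
log2 difference, day 28 minus day 3 (x axis), with unadjusted 95% intervals from limma for the 10 vesicle tetraspanins (black) and the 14 other tested tetraspanins (grey). Cd81 lies at -0.51 and Cd82 at -0.46, Tspan5 and Tspan7 lie near 0, and the intervals of low genes such as Tspan4 are wide.

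Per kilobase of mRNA, Tspan7 was the most abundant of the 10 and Cd151 the least at both times. Lengths were those of the principal transcript in GENCODE M21. On this scale Tspan7 stood at 6160 ± 212 normalized counts per kilobase at day 28 and 5829 ± 1207 at day 3, Cd81 at 2473 ± 147 and 3506 ± 46.1, and Cd63 at 420 ± 19.8 and 512 ± 26.8 (SD, n = 3 each). The order of mean levels was Tspan7, Cd81, Tspan3, Cd9, Tspan2, Cd63, Tspan5, Cd82, Tspan14 and Cd151 at both times. Tspan2 and Cd63 overlapped in their libraries at both times, Cd82 and Tspan14 overlapped at day 28, and all other neighbours in the order were separate. With the union of annotated exons as length, which gives Tspan7 7067 bases in place of 1733, Cd81 and Tspan3 stood above Tspan7.

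As a share of the 10 genes' summed level per kilobase, Cd81 made up 19.3%, 19.5% and 19.0% in the day 28 libraries, against 27.8%, 24.4% and 22.5% in the day 3 libraries. The shares of Cd81 did not overlap between the days. Tspan7 made up 49.1%, 46.9% and 48.0% at day 28, against 36.2%, 42.0% and 44.0% at day 3, and these did not overlap either. Cd63 made up 3.27 ± 0.10% at day 28 and 3.62 ± 0.27% at day 3 (SD, n = 3 each). With exon unions as lengths the share of Cd81 averaged 31.1 ± 0.43% and 36.9 ± 2.42%. That of Tspan7 averaged 19.0 ± 0.69% at day 28 and 14.9 ± 2.10% at day 3, so the size of its share depends on the length chosen. Shares of a sum are tied to each other, so a lower share of one gene raises the others, and they were not tested.

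Markers of mature oligodendrocytes, astrocytes, fibroblasts and blood had a lower mean log2 deviation in every day 28 library than in any day 3 library, as had several of the 10 genes. All 15 cerebellar neuron markers had a difference below 0 (median -2.29), but the libraries were uneven, as described above. With their mean deviation as a covariate, a planned fit, log2 differences were -0.33 for Cd63, -0.33 for Cd9, -0.53 for Cd81, -0.38 for Cd82 and -0.41 for Tspan2. In it 0 of the 10 passed, and limma called only 2 of all 16162 genes, so this 0 tells nothing particular about the tetraspanins. Of 12 oligodendrocyte and myelin markers, all tested, 11 had a difference below 0, against 51.4% of all tested genes, and 0 passed the test. Groups did not overlap, with day 28 lower, for 9 of the 12, against 9.21% of all tested genes. An unadjusted limma p under 0.05 was also found for 9 of the 12, against 13.4%. The 12 markers had a median log2 difference of -0.45 and summed to 77185 to 95774 normalized counts at day 28 and to 113896 to 135351 at day 3, with none at 0 in any library. On the log2 scale these 12 deviated on average by -0.44 (replicate 1), -0.06 (replicate 2) and -0.09 (replicate 3) at day 28, against 0.12, 0.30 and 0.17 at day 3. Day 28 replicate 1, the lowest library for these markers, was also the lowest for Cd9, Cd82 and Tspan2, but not for Cd81 or Cd63, which were lowest in day 28 replicate 3. The day 3 libraries matched only in part. There the markers and Cd82 were highest in replicate 2, where Cd9 had its lowest day 3 deviation (0.05, against 0.18 and 0.20). Tspan2 was at 0.04, 0.25 and 0.27 in day 3 replicates 1, 2 and 3. Among 6 oligodendrocyte precursor markers 2 had a difference below 0, against 51.4% of all tested genes, and 4 had one above 0. Their median log2 difference was 0.05. In a brain homogenate, fewer cells of a type and less RNA per cell cannot be told apart.

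Among 10 astrocyte markers 8 had a difference below 0, against 51.4% of all tested genes. Of these, 1 passed the test, against 0.192% of all tested genes, namely Aldoc, a glycolytic enzyme (log2 -0.68, limma adjusted p = 0.0345). An unadjusted limma p under 0.05 was found for 7 of the 10, against 13.4%. Groups did not overlap, with day 28 lower, for 3 of the 10, against 9.21%, and with day 28 higher for 1. The list was not uniform. Slc1a2, the marker with the most counts, was higher in all day 28 libraries (log2 0.37, limma adjusted p = 0.200, not past the threshold). Slc1a3 and Gja1 were near 0 (-0.006 and -0.008), and Sox9 was at 0.16. Gfap at day 3 had 7777 normalized counts in replicate 1, against 2632 and 2593 in the others. The astrocyte markers deviated on average by -0.10, -0.10 and -0.22 at day 28, against 0.19, 0.15 and 0.08 at day 3, lowest in day 28 replicate 3 as for Cd81 and Cd63. The day 3 libraries did not match in this way. There the astrocyte markers were highest in replicate 1, where Cd63 and Cd81 had their lowest day 3 deviations (0.06 and 0.23). They summed to 67569 to 71260 normalized counts at day 28 and to 68925 to 72657 at day 3, with none at 0. Of 8 fibroblast markers, all tested, 7 had a difference below 0, against 51.4% of all tested genes. Of these, 1 passed the test, against 0.192% of all tested genes, namely Dcn, a proteoglycan of the extracellular matrix (log2 -1.81, limma adjusted p = 0.0345). Their median log2 difference was -0.68, and their mean deviations were -0.12, -0.67 and -0.41 at day 28, against 0.41, 0.61 and 0.18 at day 3. They summed to 1091 to 1277 normalized counts at day 28 and to 1446 to 1660 at day 3, with none at 0. Much of this sum was Pdgfra, at 726 to 839 per library, which is also on the oligodendrocyte precursor list and was the marker not below 0 (log2 0.05). Of 7 blood markers 6 were tested, and these 6 had a difference below 0, against 51.4% of all tested genes, with a median of -1.05 and 0 past the limma test. Groups did not overlap, with day 28 lower, for 4 of the 6, against 9.21% of all tested genes. An unadjusted limma p under 0.05 was found for 5 of the 6, against 13.4%. Blood markers deviated on average by -0.81, -0.43 and -0.52 at day 28, against -0.02, 1.25 and 0.53 at day 3, and summed to 1605 to 2148 normalized counts at day 28 and to 2251 to 5257 at day 3. The part of the fibroblast and blood markers in the tetraspanin differences was not tested.

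The mean deviations of the oligodendrocyte and myelin list and of the astrocyte list were each used as a covariate, in fits added after the data were seen. Each list was lower in every day 28 library than in every day 3 library, so that day and markers cannot be told apart in these fits, and a value nearer to or farther from 0 does not assign the difference to either. With the oligodendrocyte and myelin covariate the log2 difference was -0.10 (SE 0.20) for Cd9, -0.13 (SE 0.16) for Tspan2, -0.30 (SE 0.23) for Cd82, -0.46 (SE 0.15) for Cd81 and -0.27 (SE 0.20) for Cd63, while Cd151 was at -0.63 (SE 0.30). No gene of the table passed in that fit, in which limma called 0 of 16162 genes, 510 of them with an unadjusted p under 0.05. With the astrocyte covariate it was -0.36 (SE 0.26) for Cd81, -0.22 (SE 0.34) for Cd63, -0.30 (SE 0.37) for Cd9 and -0.27 (SE 0.39) for Cd82. In the same fit Tspan2 was at -0.70 (SE 0.30), Tspan14 at -0.53 (SE 0.38) and Tspan3 at -0.35 (SE 0.37), each farther from 0 than without the covariate, and Cd151 turned to 0.28 (SE 0.51).

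**Figure D3:**
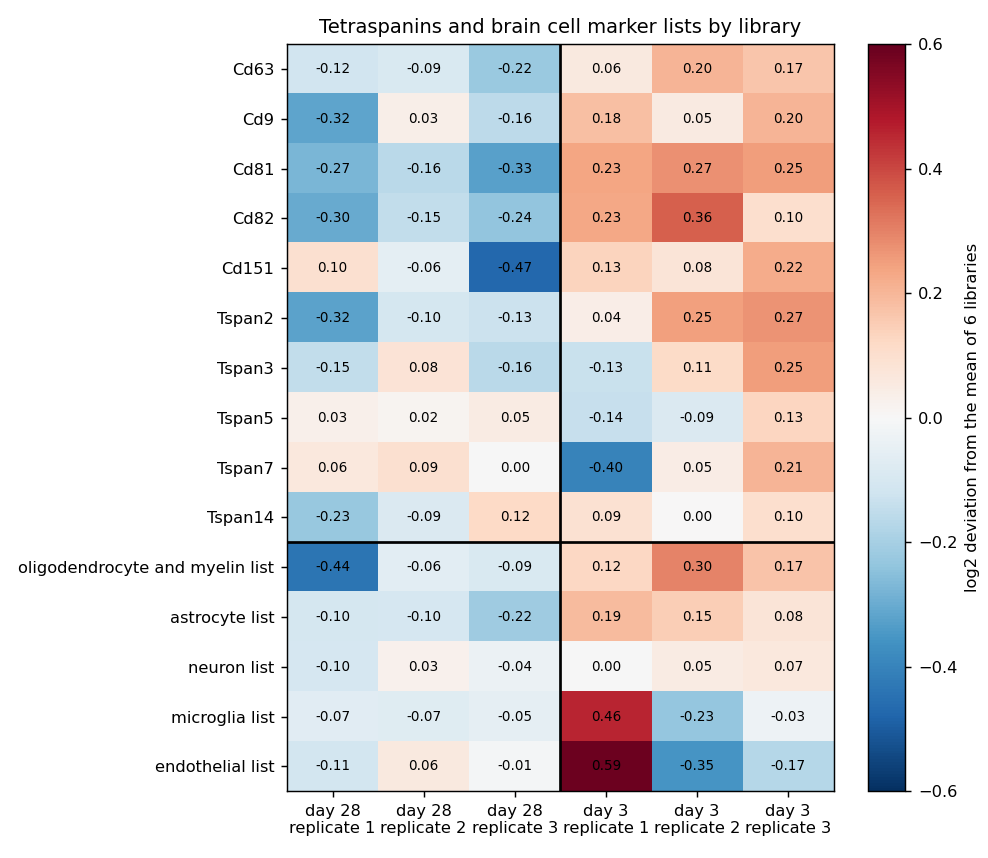
log2 deviation of each library from the mean of 6 libraries (colour and printed value) for the 10 tetraspanins and, below the line, the mean deviation of marker lists, with day 28 libraries on the left and day 3 libraries on the right. Cd81 is below 0 in all day 28 libraries and above 0 in all day 3 libraries, as are Cd63, Cd82, Tspan2, the oligodendrocyte and myelin list and the astrocyte list, while the endothelial list peaks at 0.59 in day 3 replicate 1.

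The genes most like Cd63, Cd9 and Cd81 across the 6 libraries were taken by Pearson r on the log2 scale among all tested genes, as a description of 6 points. For Cd81 they were Sh2b1, Pitpnm1 and Ndrg2, an astrocyte-enriched gene, with r between 0.993 and 0.997. For Cd63 they were Csnk2b, Laptm4a, a lysosomal membrane protein, and G6pc3, with r between 0.994 and 0.995. For Cd9 they were Timm10b, Plxna1 and Hist2h2aa2, with r between 0.987 and 0.992. None of these 9 genes passed the limma test between the days, with adjusted p from 0.117 for Ndrg2 to 0.574 for Sh2b1.

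Of 21 further tetraspanin genes, 14 were tested and 0 passed the limma test. The difference was below 0 for 12 of the 14, against 51.4% of all tested genes. An unadjusted limma p under 0.05 was found for 5 of the 14, against 13.4% of all tested genes. The median log2 difference of the 14 was -0.23, against -0.01 over all tested genes. The 4 of smallest p were Tspan9, Tspan18, Rom1 and Tspan4. Tspan9, a tetraspanin known from platelets, had 559, 738 and 751 normalized counts at day 28, against 1751, 1710 and 778 at day 3. It was high in the same day 3 libraries as the cerebellar neuron markers, day 3 replicates 1 and 2, and their part in its log2 difference of -0.97 (SE 0.29, limma adjusted p = 0.201) was not tested.

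Tspan4, whose protein marks migrasomes, showed the same uneven pattern, with 98.8, 64.3 and 78.7 normalized counts at day 28, against 200 in replicate 1, 215 in replicate 2 and 80.3 in replicate 3 at day 3. Its log2 difference was -0.92 (SE 0.37, limma adjusted p = 0.333). Tspan18 had 102, 81.3 and 94.8 normalized counts at day 28, against 132, 132 and 167 at day 3, and its groups did not overlap (log2 -0.62, SE 0.20, limma adjusted p = 0.234). Rom1, best known from photoreceptors, had a log2 difference of -0.83 (SE 0.31, limma adjusted p = 0.296), with 1 day 28 library above the lowest day 3 library.

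Among 23 genes listed as known or possible partners of tetraspanins, 22 were tested and 0 passed the limma test. The difference was below 0 for 14 of the 22, against 51.4% of all tested genes. An unadjusted limma p under 0.05 was found for 6 of the 22, against 13.4% of all tested genes. The 4 of smallest p differed in sign. Emb, an immunoglobulin-family glycoprotein, had a log2 difference of -0.62 (SE 0.14, limma adjusted p = 0.126), and Gpr37l1, an orphan receptor of glia, had one of -0.45 (SE 0.11, limma adjusted p = 0.134). Mmp14, a membrane-bound metalloproteinase, had 222, 225 and 194 normalized counts at day 28, against 158, 107 and 123 at day 3. Its groups did not overlap, with day 28 higher, at a log2 difference of 0.73 (SE 0.19, limma adjusted p = 0.159). Gria2, an AMPA receptor subunit, had a log2 difference of 0.39 (SE 0.13, limma adjusted p = 0.241). Igsf8, the direct partner of Cd9 and Cd81, had one of -0.11 (SE 0.10, limma adjusted p = 0.667).

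The 25 other vesicle genes, from cargo sorting to release, were all tested, with a median log2 difference of -0.13 and 0 genes past the limma threshold. The difference was below 0 for 20 of the 25, against 51.4% of all tested genes. An unadjusted limma p under 0.05 was found for 3 of the 25, no larger a share than the 13.4% of all tested genes. Sdc4, a heparan sulphate proteoglycan that binds syntenin, had 774, 738 and 738 normalized counts at day 28, against 1133, 1938 and 1262 at day 3. Its groups were well apart, and its day 3 maximum lay in replicate 2, the library rich in liver transcripts. The log2 difference of Sdc4 was -0.90 (SE 0.18) and did not pass (limma adjusted p = 0.0939). Smpd3, the neutral sphingomyelinase whose ceramide drives vesicle budding, had 1851, 1684 and 1800 normalized counts at day 28, against 1128, 1169 and 1687 at day 3. Its groups overlapped, with a log2 difference of 0.44 (SE 0.15, limma adjusted p = 0.246). Lamp1, a lysosomal membrane protein, had one of -0.31 (SE 0.10, limma adjusted p = 0.249), close to that of Cd63. Anxa2, an annexin, had one of -0.59 (SE 0.27, limma adjusted p = 0.385). Sdcbp, which encodes syntenin, had one of -0.14 (SE 0.09, limma adjusted p = 0.529), and Pdcd6ip, which encodes the ESCRT-associated protein ALIX, one of -0.02 (SE 0.08, limma adjusted p = 0.949).

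The differences of the 10 genes kept their sign whichever single library was left out, except for Tspan7. The plot with single libraries left out shows Cd81 (-0.55 to -0.47) and Cd63 (-0.33 to -0.25) within narrow bands. Tspan7 (-0.07 to 0.23) and Cd151 (-0.41 to -0.12) spread most widely. Exons of Cd81, Cd9, Cd151 and Tspan2 overlap annotated genes of the opposite strand, and the sources used here do not say whether counting used the strand. The overlapping genes were low, at 31.6 to 73.2 normalized counts per library for R74862 beside Cd81 and at 7.58 to 43.9 for Gm10575 beside Cd151. Gm26728 beside Cd9 and Tspan2os beside Tspan2 reached at most 5.69 and 2.06.

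**Figure D4:**
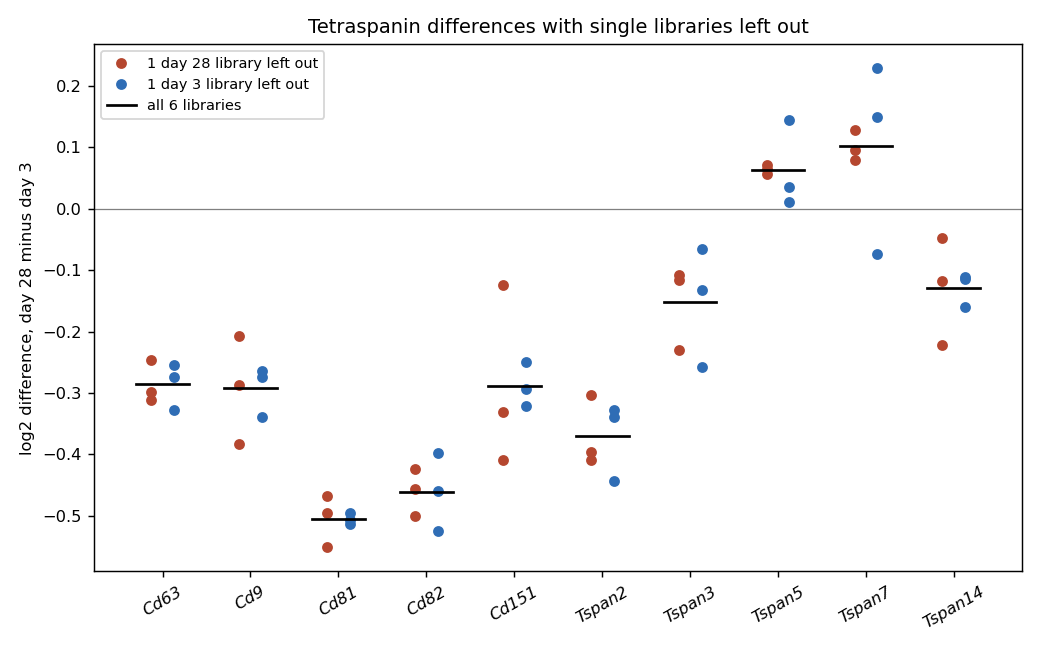
log2 difference, day 28 minus day 3 (y axis), of the 10 tetraspanins with all 6 libraries (black line) and with 1 day 28 library (red) or 1 day 3 library (blue) left out. Cd81 stays between -0.55 and -0.47, and Tspan7 crosses 0 when day 3 replicate 1 is left out.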

How the data were processed

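The deposited table holds log2 values for each gene and library, made by the authors; the build was GRCm39 per the submitters' processing notes, while aligner, counter and annotation are not given in the sources used here. Back-transformed and reduced by 1, 100% of values in each library were whole multiples of its smallest step (tolerance 0.001 reads), so the deposited log2 values are counts divided by a size factor (0.822 to 1.12), plus 1. Per the labels' protocols, polyadenylated RNA and stranded libraries were used. Symbols came from GENCODE M21, which named 52073 identifiers. With R 4.3.3, limma 3.58.1 was fitted to log2(normalized count + 1) of genes averaging at least 10 normalized counts; this scale understates changes of low genes. The model held group alone and an intensity trend (4 residual degrees of freedom), and two-sided p-values were adjusted after Benjamini and Hochberg at 0.05. The procedure was tested on 5 sets of simulated data. There 29.2% of genes given a 1.5-fold change were called, 57.2% of those given a 2-fold change and 0.0301% of unchanged genes. A gene that did not pass may therefore still differ. Members and lists were chosen with earlier results of these data known. Of 3 further lists, genes past the threshold or else the 4 of smallest p were named, and for Cd63, Cd9 and Cd81 the 3 genes of highest r; Adam10, Igsf8, Sdcbp and Pdcd6ip were added for their roles. Alternatives covered the pseudocount, filter, scaling, variance model, weights, replicate block, voom, threshold, covariates and libraries left out; the glial covariates were added after the data were seen. Figures used matplotlib 3.10.9.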

Additional observations from a re-analysis of the deposited data

How the results depend on the processing

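Depth was lowest for Cd63, Cd82, Cd151 and Tspan14, which had between 182 and 584 reads per library. Over the alternatives, 0 of the 10 tetraspanins passed except for Cd81, so that the count was 1 with a robust prior, 1 with library weights and 1 at an adjusted p threshold of 0.1, and ran from 0 to 1 with single libraries left out. The limma count over all genes was 31; it was 68 with no filter beyond 1 read, 74 with a robust prior, 69 with library weights, 152 at a threshold of 0.1, 3 without the intensity trend, 2 with a cerebellar covariate, and 0 with voom, with the replicate block, without day 3 replicates 1 and 2, and with either glial covariate (2113, 2386, 1904, 510 and 420 genes had an unadjusted p under 0.05 in these, in that order). With single libraries left out it ran from 1 to 623. Whether the replicate numbers pair the libraries could not be settled, as all correlations of deviations between the days were weak. Those of same-numbered libraries were 0.03, 0.13 and -0.06. Day 28 replicates 1 and 2 correlated best with their own number, and day 28 replicate 3 with day 3 replicate 1 (0.16). Under the replicate block Cd81 kept its log2 difference of -0.51 (limma adjusted p = 0.102). Its differences with single libraries left out ran from -0.55 to -0.47, and those of Tspan7 from -0.074 to 0.23. Some signs turned, each for a difference that had not passed. Tspan7 was at -0.074 without day 3 replicate 1, -0.15 without day 3 replicates 1 and 2, -0.090 with the cerebellar covariate and -0.39 with the astrocyte covariate. Tspan5 was at -0.10, -0.038 and -0.26 in the last 3 of these settings. With the oligodendrocyte covariate Tspan3 was at 0.016 and Tspan14 at 0.050, and with the astrocyte covariate Cd151 was at 0.28, against -0.29 without it. The cause of these changes was not tested. The 3 scalings moved the median of all tested genes by under 0.01.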
